A study of Homo sapiens with 6 samples.

Results

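Satellite RNA of SW620 cells was compared between the 2D culture kept after growth as a mouse xenograft and the 2D culture kept before it. SW620 is a human colon cancer line that was derived from a metastatic lymph node. The comparison sets the library labelled Post-xeno RNA against the library labelled Pre-xeno RNA, 2 of the 6 libraries of the study, over all 9566 satellite loci of 24 families in the deposited matrix. The other 4 libraries are the xenograft RNA and the DNA of all 3 stages, and the design asked how HSATII RNA and DNA levels move as the cells pass between culture and mouse. Both cultures were grown in RPMI1640 with fetal bovine serum. RNA of both was purified with TRIzol and sequenced on the Helicos platform, which reads single molecules without amplification, with its digital gene expression protocol. The stage between them was a subcutaneous tumour in a Nu/Nu mouse, a strain without a thymus. With 1 library for each culture, the spread between cultures is unknown and no p-value is given. The labels do not say how the cells were recovered from the tumour or how many passages separate the cultures, and the matrix holds no gene rows (0) that could check the cell type or carried-over mouse cells.

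Satellites are tandem repeats. Alpha satellite (ALR/Alpha) builds the centromere, where its homogeneous arrays carry the kinetochore, and older diverged alpha satellite flanks those arrays. Gamma satellites (GSATII, GSATX, GSAT) are GC-rich repeats of pericentromeric regions. Beta satellite (BSR/Beta) lies mainly near the centromeres of the acrocentric chromosomes and on chromosomes 9, 19 and Y. HSATII is a pericentromeric simple satellite that is silent in most normal tissues and is transcribed in epithelial cancers. TAR1 is a repeat found next to telomeres, and copies in this matrix also lie inside chromosomes. SST1 is a macrosatellite, a tandem array of long units. The pentamer families are named by their unit, (CATTC)n and (GAATG)n, the 2 strands of 1 repeat.

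The library totals were 240046 reads after the xenograft and 157326 reads before it. Reads counted at loci are called hits here, and 1 hit was worth 4.17 RPM (reads per 1000000 reads) after and 6.36 RPM before. A locus without a hit could therefore hold up to 12.5 RPM after and 19.1 RPM before, taking 3 reads as the limit. A read that matches several loci may be counted at each. Of 761 loci with 10 or more RNA hits, 359 shared their values in all 3 RNA libraries with a second locus of the same family. Intervals are 95% intervals (exact Poisson for RPM, exact conditional binomial for ratios, Wilson score for shares). They cover counting error only and are too narrow where hits are the same read.

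Satellite RNA as a whole stood at 13031 RPM after the xenograft (3128 hits, 12578 to 13496) and 5040.5 RPM before it (793 hits, 4696 to 5404), a ratio of 2.59 (2.39 to 2.80). The gamma satellites were well above that ratio. Their 313 loci held 840 hits after and 77 before, 7.15-fold more per library (5.66 to 9.15). All other families together were 2.09-fold higher (1.92 to 2.28; 2288 hits after and 716 before). Outside the gamma, alpha and beta satellites, the remaining 5968 loci came to 1716 RPM after and 1468 RPM before, a ratio of 1.17 with an interval that held 1 (0.993 to 1.38). These are bulk libraries, in which more cells with satellite RNA and more satellite RNA per cell cannot be told apart.

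**Figure D1:**
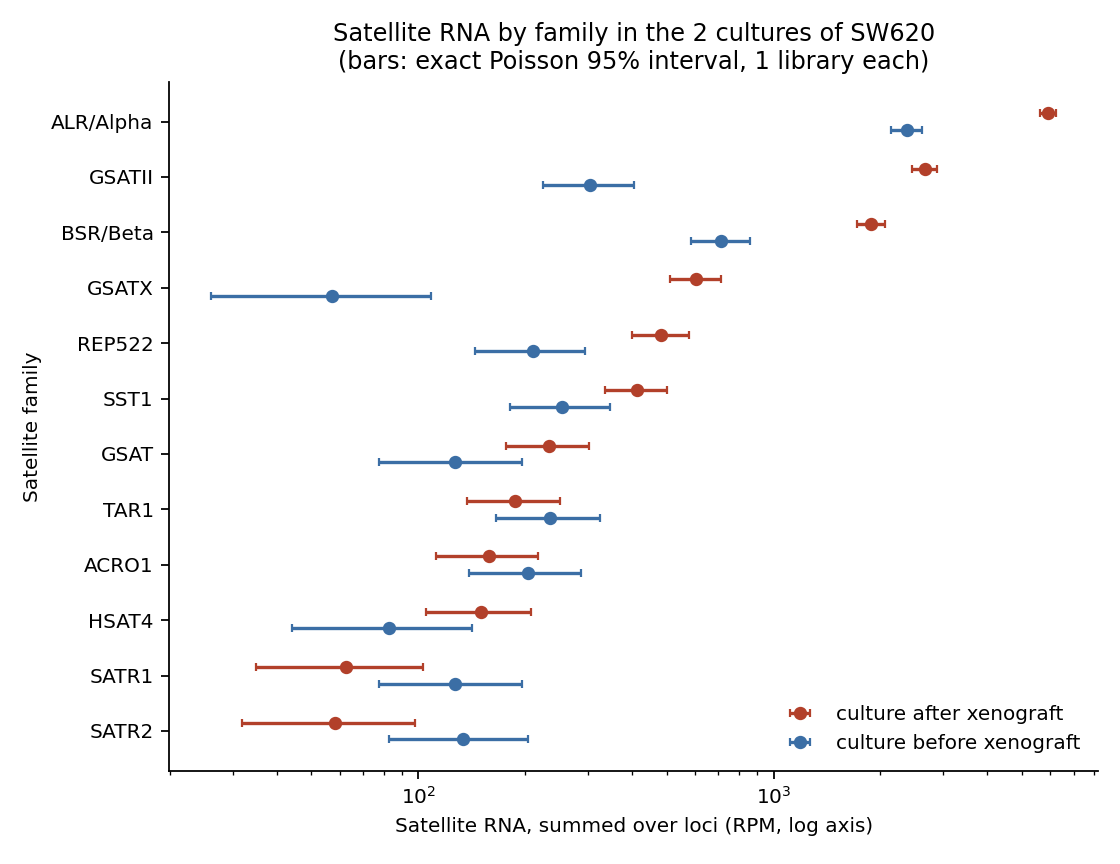
Satellite RNA of each family with 20 or more hits over both cultures, in RPM summed over loci on a log axis, with the culture after the xenograft drawn above the culture before it and bars for exact Poisson 95% intervals. GSATII stands at 2662 RPM after and 305 RPM before, next to ALR/Alpha at 5932 and 2371 RPM, while TAR1 and ACRO1 overlap.

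The size of every ratio depends on the library totals. Scaling by TMM over the satellite loci lowered each log2 ratio by 0.75 and DESeq2 size factors by 0.64, which turned SST1 to 0.962 under TMM, and scaling to the totals of satellite hits turned alpha satellite (0.968), GSAT (0.710), REP522 (0.891) and SST1 (0.627) below 1. The share of the satellite hits that each family took does not depend on the scaling. Alpha satellite took 45.5% after the xenograft (43.8 to 47.3%) and 47.0% before it (43.6 to 50.5%), and beta satellite took 14.5% after (13.3 to 15.7%) and 14.1% before (11.9 to 16.7%). Their intervals overlap. GSATII took 20.4% after (19.1 to 21.9%) and 6.05% before (4.60 to 7.93%), and GSATX took 4.64% after (3.95 to 5.43%) and 1.13% before (0.598 to 2.14%). Relative to the ratio of all other satellites, GSATII was thus 3.98-fold higher (2.93 to 5.52) and GSATX 4.23-fold (2.16 to 9.49), whereas alpha satellite was at 0.941 (0.802 to 1.10) and beta satellite at 1.03 (0.819 to 1.30).

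Families with lower shares after the xenograft lay at the other end of this scale. TAR1 took 1.44% of satellite hits after and 4.67% before, and relative to the other satellites it was at 0.298 (0.187 to 0.478). ACRO1, a repeat named for acrocentric chromosomes, took 1.21% after and 4.04% before (0.293, 0.177 to 0.487). Its 61 loci lie on 9 chromosomes, 20 of them on chromosome 4, which is not acrocentric. Chromosome 4 had 12 of the 38 ACRO1 hits after and 10 of the 32 before. SATR1 and SATR2 took 0.480% and 0.448% after, against 2.52% and 2.65% before (relative ratios 0.186, 0.0883 to 0.385, and 0.165, 0.0774 to 0.343). CER was at 0.226 on this scale (0.0810 to 0.621) from 9 hits after and 10 before. On library totals, SATR2 alone of these 5 families had an interval wholly below 1 (0.437, 0.206 to 0.901). SATR2 also rested on 1 locus, at chromosome 19, 9301347 to 9301946, with 3 hits after and 10 before. Without it the ratio was 0.655 (0.258 to 1.67). SST1 also fell in share, from 5.04% before to 3.16% after, though it was at 1.62 on library totals. Relative to the other satellites SST1 was at 0.615 (0.418 to 0.920). D20S16 was at 0.0719 on the relative scale (0.00727 to 0.379), from 2 hits after and 7 before.

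**Figure D2:**
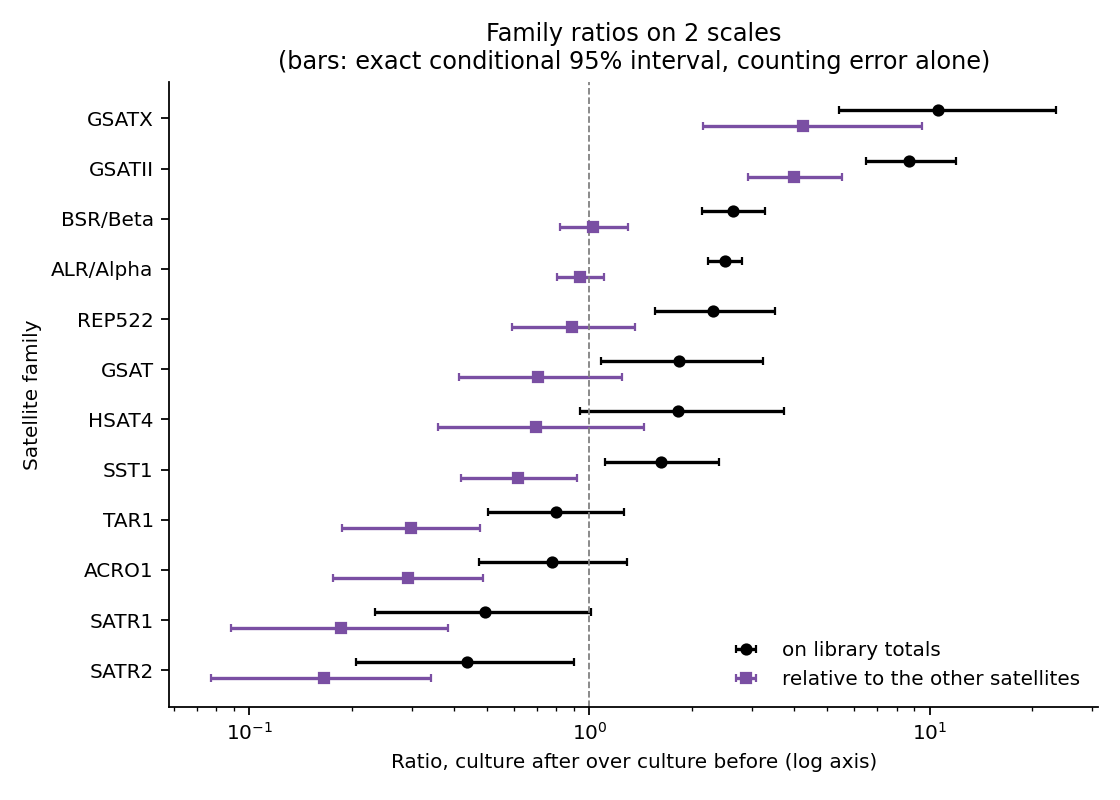
Ratio of the culture after over the culture before for each family with 20 or more hits, on library totals (black circles) and relative to all other satellites (purple squares), on a log axis with exact conditional 95% intervals. GSATX and GSATII lie to the right of 1 on both scales, ALR/Alpha and BSR/Beta lie near 1 relative to the other satellites, and TAR1, ACRO1, SATR1 and SATR2 lie to the left of 1 on that scale.

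Within GSATII, the signal came from a minority of the copies. The family has 190 loci, of which 147 lie on chromosome 12, and these had 10 hits after the xenograft and 6 before (1.09, 0.360 to 3.66). Hits fell on 4 of the 147 in each culture. The 43 GSATII loci elsewhere had 629 hits after and 42 before, 9.82-fold higher (7.18 to 13.8). Per length, the loci outside chromosome 12 stood at 29.2 RPM per kb after and 2.98 RPM per kb before, and those on chromosome 12 at 0.383 RPM per kb after and 0.351 RPM per kb before. DNA was read at both sets and was also lower at the chromosome 12 loci. As sums over loci, not per kb, GSATII DNA on chromosome 12 was at 55.8 RPM after and 23.0 RPM before. At the other GSATII loci DNA was at 674 RPM after and 522 RPM before. Whether the RNA difference between the sets follows their DNA was not tested. Chromosome 12 stood at 0.112 of the ratio of the rest of the family (0.0349 to 0.394).

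GSATII was higher on most of the chromosomes that carry it. Of 15 chromosomes and contigs with 10 or more GSATII hits over both cultures, 12 had intervals wholly above 1, and 3 held 1 (chromosomes 12 and 14 and the contig 17_gl000205_random). Chromosome 9 held the most, with 650 RPM after and 69.9 RPM before on 8 loci (156 and 11 hits), a ratio of 9.29 with a lower limit of 5.05. Chromosome 22 had 76 hits after and 2 before (24.9, 6.66 to 209). The unplaced contig Un_gl000244 had 77 after and 2 before. The locus at chromosome 22, 16096912 to 16097983, and the locus at Un_gl000244, 15910 to 16982, had equal RNA values in all 3 RNA libraries, so their hits may be the same reads. A second pair, at chromosome 22, 16095854 to 16096899, and Un_gl000244, 16996 to 18044, matched in both cultures (36 and 1 hits each). In xenograft RNA this second pair had 32 and 33 hits. The values of chromosome 22 and Un_gl000244 may therefore not be separate. Chromosome 4 had 38 hits after and 0 before (lower 95% limit of the ratio 6.43, or 8.30 with 3 reads in place of 0), and 20 hits after were left once loci with equal values were counted once. Over the whole family, counting loci equal in all 6 libraries once left 621 hits after and 48 before (8.48), and counting loci equal in RNA once, the first pair above among them, left 585 and 47 (8.16, 6.06 to 11.2). The second pair, not equal in the xenograft, stayed counted at both of its loci.

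Single GSATII loci were far apart between the cultures. The locus at chromosome 2, 132511066 to 132514594 (hg19, plus strand, 3529 bp) had 233 RPM after and 0 before, on 56 and 0 hits. The lower 95% limit of the ratio was 9.63, and setting 3 reads in place of 0 gave 12.2. DNA of this locus was at 41.5 RPM after and 33.1 RPM before. At chromosome 9, 68301970 to 68306363 (plus strand), GSATII RNA was at 208 RPM after and 12.7 RPM before (50 and 2 hits; 16.4, 4.30 to 139), with DNA at 30.8 RPM after and 32.4 RPM before. The locus at 17_gl000205_random, 109878 to 112289, differed less, with 24 hits after and 8 before (1.97, 0.855 to 5.06). It is the GSATII locus with most hits before the xenograft, and naming it for that favours a low ratio. It stood at 0.196 of the ratio of the rest of the family (0.0787 to 0.537). For the family as a whole, the DNA ratio was 1.34 where the RNA ratio was 8.73.

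Most GSATX hits lay on a pair of loci, 130 of 145 after the xenograft and 6 of 9 before it. The copies at chromosome Y, 19677922 to 19679160 (minus strand) and 20500617 to 20501856 (plus strand) each had 271 RPM after and 19.1 RPM before (65 and 3 hits; 14.2, 4.65 to 70.6). Both have equal values in every library, so their hits may be the same reads. Counted once, the pair had 65 of 80 family hits after and 3 of 6 before, and the family ratio was 8.74 (3.84 to 24.5). DNA at each of these copies was at 0.974 RPM after and 11.0 RPM before. The remaining 48 GSATX loci outside chromosome Y had 15 hits after and 3 before (3.28, 0.927 to 17.7). GSAT, the third gamma satellite, depended on 1 locus: at chromosome 8, 47109801 to 47124802, 41 hits were counted after and 3 before (8.96, 2.86 to 45.2). The family ratio of 1.84 (1.08 to 3.23) turned to 0.578 (0.269 to 1.23) without it.

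**Figure D3:**
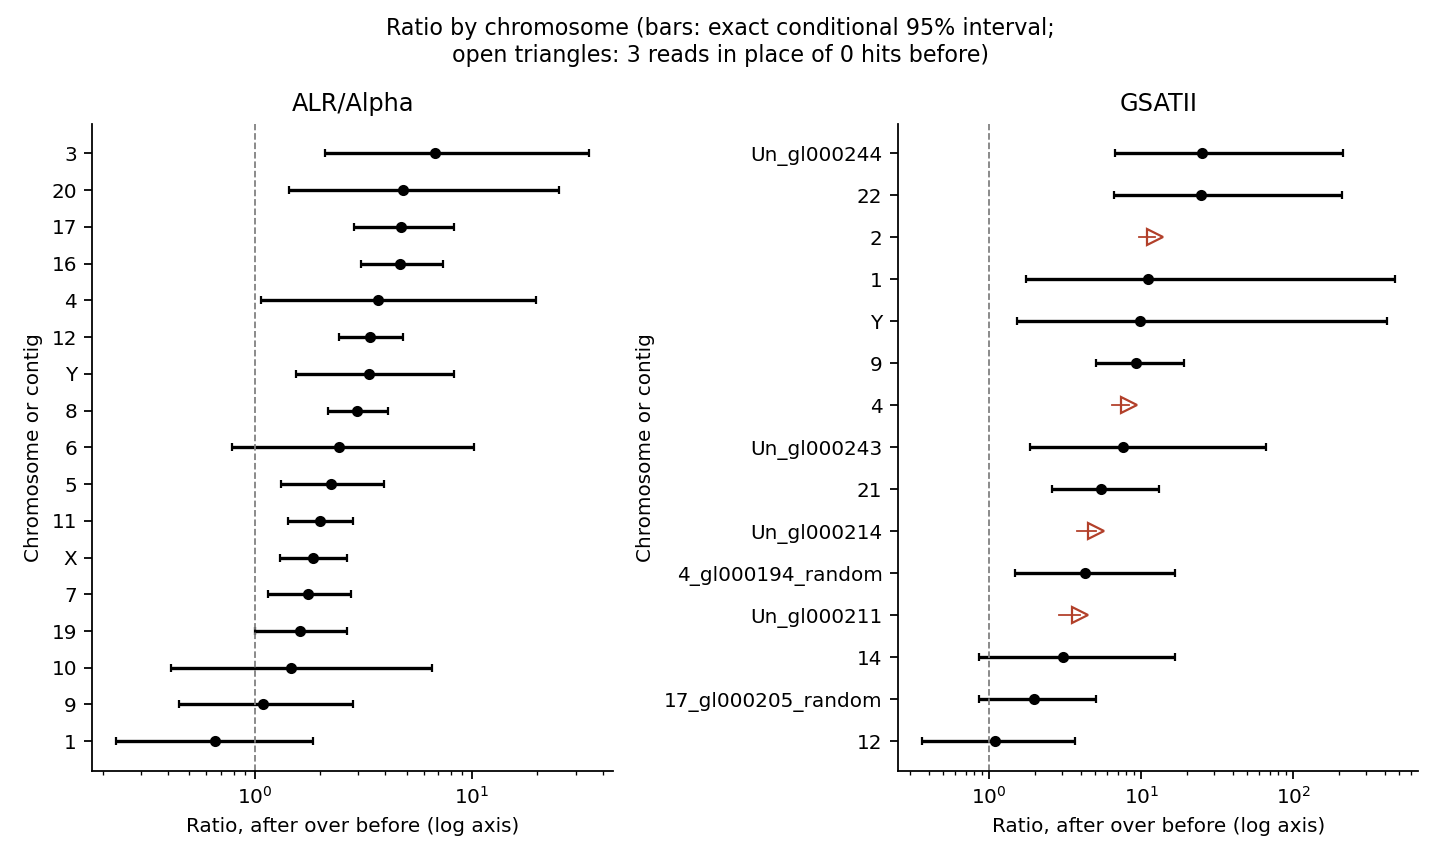
Ratio of the culture after over the culture before by chromosome or contig for ALR/Alpha (left) and GSATII (right), for combinations with 10 or more hits, on a log axis with exact conditional 95% intervals. Open triangles show the ratio with 3 reads in place of 0 where the culture before had 0 hits. GSATII on chromosome 12 lies at 1.09, below the other 14, and ALR/Alpha on chromosome 1 lies at 0.655. The alpha contig Un_gl000226, with 0 hits after and 14 before, is not drawn.

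Alpha satellite RNA was at 5932 RPM after the xenograft (1424 hits) and 2371 RPM before it (373 hits), 2.50-fold higher (2.23 to 2.81), or 0.797 RPM per kb after and 0.318 RPM per kb before. Of 18 chromosomes and contigs with 10 or more hits, 13 had intervals above 1. Chromosomes 16 and 17 stood above the rest of the family. Chromosome 16 had 185 hits after and 26 before (4.66, 3.08 to 7.33; 1.99 relative to other alpha satellite, 1.29 to 3.18), and chromosome 17 had 130 after and 18 before (4.73, 2.88 to 8.24; relative 1.98, 1.18 to 3.50). Chromosome 1, with 9 hits in each culture, was at 0.258 relative to the rest (0.0899 to 0.738). The interval below 1 was that of the contig Un_gl000226, a single alpha array of 15003 bp with 0 hits after and 14 before (upper 95% limit of the ratio 0.198), and with DNA at 7249.9 RPM after and 329 RPM before.

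Summed by class, the alpha loci with most DNA were not higher in RNA after the xenograft, though single loci differed. Loci were sorted by DNA level in the culture before, in classes chosen after the values had been seen. The 15 alpha loci above 50 RPM of DNA held 42.4% of alpha satellite DNA hits in that library. They gave 59 RNA hits after the xenograft and 54 before (0.716, 0.487 to 1.06), which is 4.14% of alpha satellite RNA after and 14.5% before. The 36 loci between 20 and 50 RPM of DNA gave 591 RNA hits after and 93 before (4.16, 3.34 to 5.24), or 41.5% after and 24.9% before. Loci from 1 to 5 and from 5 to 20 RPM were at 2.56 (1.99 to 3.33) and 2.66 (2.10 to 3.40), loci above 0 and up to 1 RPM at 1.27 (0.891 to 1.83), and the 392 loci at 0 RPM at 1.01 (0.448 to 2.39). Sorted by DNA of the culture after instead, the 20 loci above 500 RPM had 39 RNA hits after and 69 before (0.370, 0.244 to 0.556). The classes did not form an even trend, at 2.76 up to 10 RPM, 2.92 up to 50, 4.09 up to 200 and 0.874 up to 500 RPM. Without Un_gl000226 the hits above 500 RPM were 39 and 55 (0.465, 0.300 to 0.713). In the class above 50 RPM the value without that contig was 0.967 (0.636 to 1.48). Without the 2 loci of this class with most RNA hits over both cultures, it was 0.283 (0.147 to 0.522), on 16 hits after and 37 before. Those 2 were picked on the values compared, and the interval carries that choice. The sum of this class thus joins loci that differed in direction.

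Single loci from the highest and lowest lists are examples and show no trend with DNA by themselves. The array at chromosome X, 58544096 to 58582011 (37916 bp) had 62.5 RPM after and 95.3 RPM before (15 hits in each), with DNA at 5675 RPM after and 204 RPM before. The arrays at chromosome 17, 22241552 to 22263006, and chromosome 11, 51567243 to 51594205, had 0 hits after and 7 before each (upper 95% limit of the ratio 0.455), with DNA at 1726 and 1290 RPM after, against 41.8 and 39.95 RPM before. The array at chromosome 16, 35204197 to 35259004, also high in DNA after (1357 RPM), had 9 RNA hits after and 4 before (1.47, 0.412 to 6.55). The alpha locus with most RNA after the xenograft, at chromosome 12, 38118813 to 38127781 (8969 bp), had 354 RPM after and 50.8 RPM before (85 and 8 hits; 6.96, 3.38 to 16.7), with DNA at 140 RPM after and 35.6 RPM before. A shorter locus at chromosome 17, 21773058 to 21777641, had 262 RPM after and 12.7 RPM before (63 and 2 hits; 20.6, 5.48 to 174), with DNA at 19.2 RPM after and 28.0 RPM before.

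Beta satellite RNA was at 1883 RPM after (452 hits) and 712 RPM before (112 hits), 2.65-fold higher (2.15 to 3.28). Chromosomes 19 and Y carried most of it. Chromosome 19 had 246 hits after and 50 before (3.22, 2.37 to 4.46), and chromosome Y had 169 after and 38 before (2.91, 2.04 to 4.26). Within chromosome 19 the copies differed. The short copy at 24246058 to 24246714 (minus strand, 657 bp) had the highest satellite RNA of the culture after, 387 RPM against 25.4 RPM before (93 and 4 hits; 15.2, 5.76 to 57.1), with DNA at 18.5 RPM after and 19.1 RPM before. The longer copy at 22073355 to 22075704 (2350 bp) went the other way, with 12.5 RPM after and 63.6 RPM before (3 and 10 hits; 0.197, 0.0348 to 0.764). On the contig Un_gl000225, 5 hits after and 7 before put beta satellite at 0.169 of the rest of the family (0.0413 to 0.631).

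SST1 differed in opposite directions on chromosomes Y and 19. On chromosome Y it had 78 hits after and 11 before (4.65, 2.46 to 9.69), and on chromosome 19 it had 4 after and 20 before (0.131, 0.0326 to 0.391). Relative to the rest of the family, chromosome Y was at 9.59 (3.91 to 25.1) and chromosome 19 at 0.0435 (0.00975 to 0.148). The number of separate reads behind these sums was not tested. The chromosome Y loci at 6294586 to 6294967 and 9575413 to 9575794 had equal values, 137 RPM after and 31.8 RPM before each (33 and 5 hits), and with equal loci counted once chromosome Y had 41 hits after and 6 before. On chromosome 19, 12 of the 14 loci hit before the xenograft had a single hit, and on chromosome 4 all 13 loci hit after it had a single hit. With equal loci counted once the family ratio of 1.62 (1.11 to 2.40) became 1.19, with an interval that held 1 (0.767 to 1.88).

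REP522 was at 483 RPM after and 210 RPM before (116 and 33 hits; 2.30, 1.55 to 3.50), from chromosomes 9 and 22. Its locus at chromosome 22, 22477210 to 22479804 (plus strand), had the highest satellite RNA of the culture before, with 233 RPM after and 133 RPM before (56 and 21 hits; 1.75, 1.04 to 3.04). Its DNA was close to nothing in both cultures, at 0.974 RPM after and 0.230 RPM before. On chromosome 9, REP522 had 51 hits after and 5 before (6.69, 2.69 to 21.5), led by the locus at 43159272 to 43160588 with 33 hits after and 2 before.

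TAR1 was at 187 RPM after and 235 RPM before (45 and 37 hits; 0.797, 0.504 to 1.27). Most of its hits lay on chromosome 9, 27 of 45 after and 24 of 37 before. The 3 TAR1 loci with most hits start at 42805767, 66957765 and 69724087 of chromosome 9, inside the chromosome and not at its ends. The locus at chromosome 9, 42805767 to 42806343, had 54.2 RPM after and 69.9 RPM before (13 and 11 hits; 0.775, 0.320 to 1.91). DNA at this locus was at 2.92 RPM after and 198 RPM before, so the RNA values lay within counting error of each other while the DNA values did not. SUBTEL_sa had 1 hit after and 3 before (0.218, 0.00416 to 2.72).

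HSATII, the repeat the study was built around, had 1 hit after the xenograft and 3 before on 399 loci, or 4.17 RPM (0.105 to 23.2) and 19.1 RPM (3.93 to 55.7). Each hit fell on a different locus. A difference was not detectable at this depth (0.218, 0.00416 to 2.72), while HSATII DNA was 25.4-fold higher after than before. DNA of all satellites was also higher, at 10.4% of DNA reads after and 0.854% before. The pentamers had few hits too, with 13 hits after and 3 before for (CATTC)n (2.84, 0.780 to 15.5) and 9 after and 4 before for (GAATG)n (1.47, 0.412 to 6.55), on as many loci as hits. Per length, after the xenograft they stood at 0.149 and 0.0863 RPM per kb, and HSATII at 0.0147 RPM per kb. HSATI and SAR had 1 hit each after and 0 before, MSR1 2 after and 0 before, and HSAT6 none (0) in either.

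The other small families had few hits. HSAT4 was at 150.0 RPM after and 82.6 RPM before (36 and 13 hits; 1.81, 0.940 to 3.73), and its chromosome 19 copies at 2.72 (1.16 to 7.34; 29 hits after and 7 before). LSAU had 9 hits after and 3 before (1.97, 0.491 to 11.3), HSAT5 1 after and 2 before (0.328, 0.00555 to 6.29), and D20S16 2 after and 7 before (0.187, 0.0190 to 0.983). Without its highest locus D20S16 was at 0.328 (0.0296 to 2.29). In all, 7 of the 24 families had intervals above 1, 2 below 1 and 11 held 1, while 3 had 0 hits before and 1 had no hit. Under TMM and under size factors, 4 had intervals above 1 (alpha and beta satellite, GSATII and GSATX), with 6 below 1 under TMM and 5 under size factors. With equal loci counted once 6 were above 1, without SST1, and without each family's highest locus 0 were below 1.

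Loci were compared one by one on the log2(RPM + 5) scale, which understates differences of low loci, among those with at least 20 RPM in either culture. That minimum means 5 hits after or 4 hits before. Of 145 such loci, 104 (71.7%) were at least 2-fold higher after the xenograft and 11 (7.59%) at least 2-fold lower, with a median log2 difference of 1.75. Scaling by TMM over the satellite loci gave 72 higher and 28 lower, and DESeq2 size factors 76 higher and 21 lower. The minimum was reached in the culture after alone at 105 loci, which were thus compared for their high value after. Among the 40 loci that reached 20 RPM before the xenograft, the count was 14 higher against 11 lower (median 0.27). These 40 were in turn compared for their high value before, 15 of them at the minimum there alone. Neither count is free of the selection. For GSATII, 22 of 27 loci were higher and 0 lower (median 3.20), but 23 of the 27 reached the minimum in the culture after alone and 0 in the culture before alone, so the direction was largely set by the minimum. Alpha satellite had 57 of 74 higher and 5 lower (median 1.73), and beta satellite 15 of 20 higher and 1 lower (median 1.67), shares near those of all loci. The same limit holds for both, since 56 of the 74 alpha and 16 of the 20 beta loci reached the minimum in the culture after alone. The 18 loci outside the alpha, beta and gamma families had 5 higher and 5 lower (median −0.32).

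**Figure D4:**
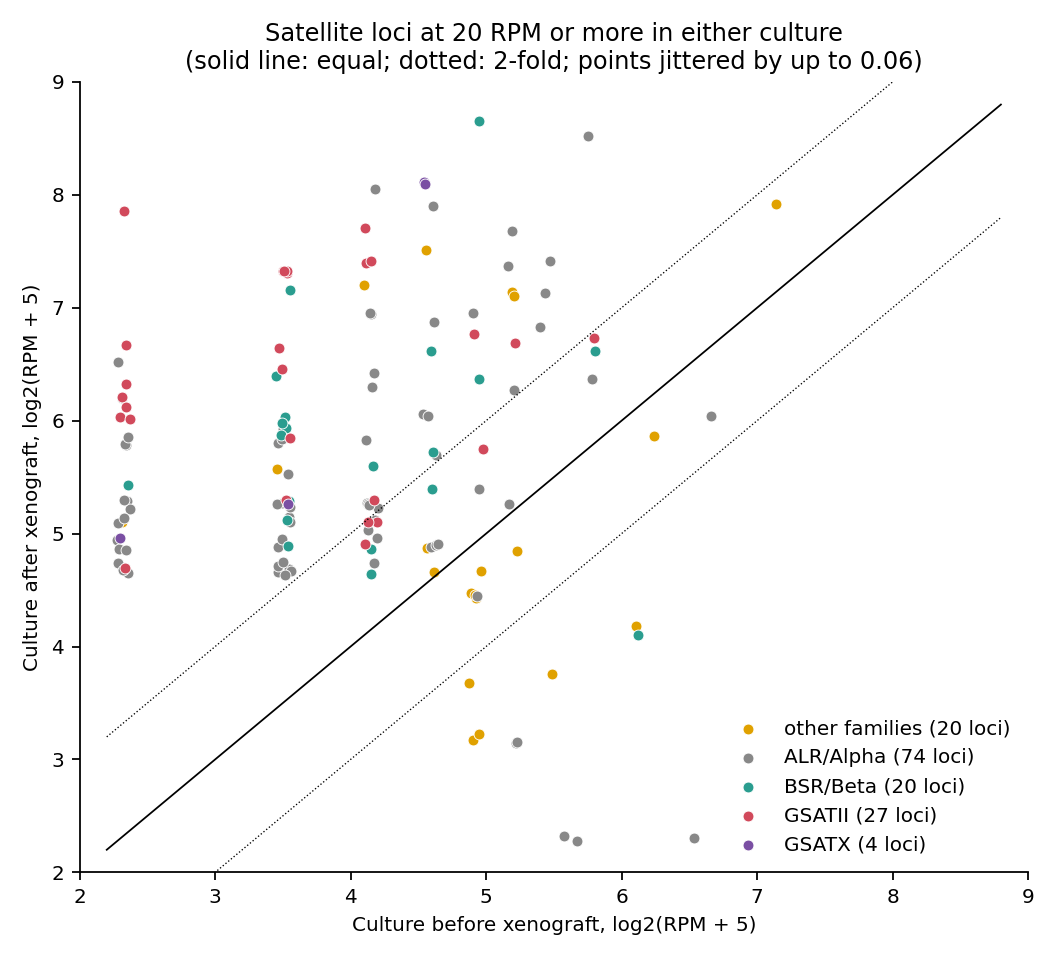
Satellite loci that reached 20 RPM in at least 1 culture, with log2(RPM + 5) of the culture after on the vertical axis and of the culture before on the horizontal axis. The solid line marks equal values and the dotted lines 2-fold. GSATII loci (red) fill the upper left with log2 differences of up to 5.57, 3 alpha arrays without a hit after the xenograft lie at the bottom, and 25 loci reach the minimum in both cultures.

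A set of 25 loci reached at least 20 RPM in both cultures: 12 alpha, 4 GSATII, 3 beta, 2 SST1, 2 TAR1, 1 GSAT and 1 REP522. Of these, 14 were at least 2-fold higher after, with a median of 1.39. The set leaves out by construction the 15 loci at the minimum in the culture before alone, which hold all 11 lower loci. It also leaves out the 105 loci at the minimum in the culture after alone, which hold most of the 104 higher loci. The GSATII members of this set, which needed at least 4 hits before to enter it, differed by 0.85 to 1.90 on the log2 scale. The 12 highest differences of all loci were 3.77 to 5.57, from 9 GSATII and 3 alpha loci with 0 to 2 hits before. The 12 lowest differences (−4.23 to −0.57) were 6 alpha arrays, 3 ACRO1 copies and 1 locus each of beta satellite, SATR2 and SST1. Of those 12, 5 ratios had intervals wholly below 1. A count test on hits (exact conditional binomial with Benjamini-Hochberg adjustment at 0.05), which compares these libraries and not the conditions, called 38 of 879 loci with a hit higher (4.32%) and 3 lower (0.341%). The 38 were 16 GSATII, 13 alpha, 3 beta, 2 GSATX, 2 SST1, 1 GSAT and 1 REP522 loci, and the 3 were the alpha arrays of Un_gl000226 and chromosomes 11 and 17. Each locus was tested separately, also where values were equal, so several calls may rest on the same reads. Examples are the 2 GSATX loci (65 and 3 hits each) and the 2 SST1 loci (33 and 5 hits each). GSATII loci of chromosome 22 and Un_gl000244 (36 and 1 hits each) are further examples.

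Hits reached 638 loci after the xenograft and 455 before, of which 214 had a hit in both. These shared loci are 33.5% of the loci hit after and 47.0% of those hit before, and they carried 71.6% of all satellite hits after and 64.1% before. At the depth of the culture before, 507 loci would have been hit in the culture after, computed from its hits. Loci hit in 1 culture alone were mostly at the limit of detection: 290 of 424 hit after alone and 221 of 241 hit before alone had a single hit. In GSATII, 20 of the 23 loci hit before were also hit after (87.0%, and 46.5% of the 43 hit after). In SST1, 5 of the 26 hit in each culture were shared. RNA was also more concentrated after the xenograft, where the 10 highest loci held 20.3% of hits, against 14.2% in the culture before.

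Ratios also differed by length. Over all families, loci from 200 bp to under 20000 bp were at 2.45 to 3.24, whereas the 62 loci of 20000 bp or more had 148 hits after and 81 before (1.20, 0.907 to 1.59) and the 2950 under 200 bp had 30 and 17 (1.16, 0.618 to 2.24). Most of the longest class is alpha satellite, whose 57 loci of 20000 bp or more had 136 hits after and 73 before (1.22, 0.912 to 1.65). That is 0.434 relative to shorter alpha loci (0.315 to 0.602). Length and DNA level were not separated, as the 15 alpha loci above 50 RPM of DNA before had a median length of 19664 bp. Alpha loci from 2000 bp to under 5000 bp were at 3.82 (2.84 to 5.23; 303 hits after and 52 before). The 78 alpha loci under 200 bp stood highest per length, at 6.23 RPM per kb after and 1.36 RPM per kb before, but from 14 hits after and 2 before on 2 loci in each culture. In beta satellite, loci from 500 bp to under 1000 bp were at 4.87 (3.27 to 7.51; 208 and 28 hits) and those from 5000 bp to under 20000 bp at 0.901 (0.330 to 2.58; 11 and 8 hits). In GSATII, loci from 1000 bp to under 2000 bp stood at 16.5 RPM per kb after and 1.12 RPM per kb before. Those from 2000 bp to under 5000 bp stood at 19.5 RPM per kb after and 2.48 RPM per kb before. The 118 loci under 1000 bp had 18 hits after and 5 before. Length and chromosome overlap in this family and were not separated. The 147 loci on chromosome 12 had a median length of 537 bp, and the 43 elsewhere 1539 bp.

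**Figure D5:**
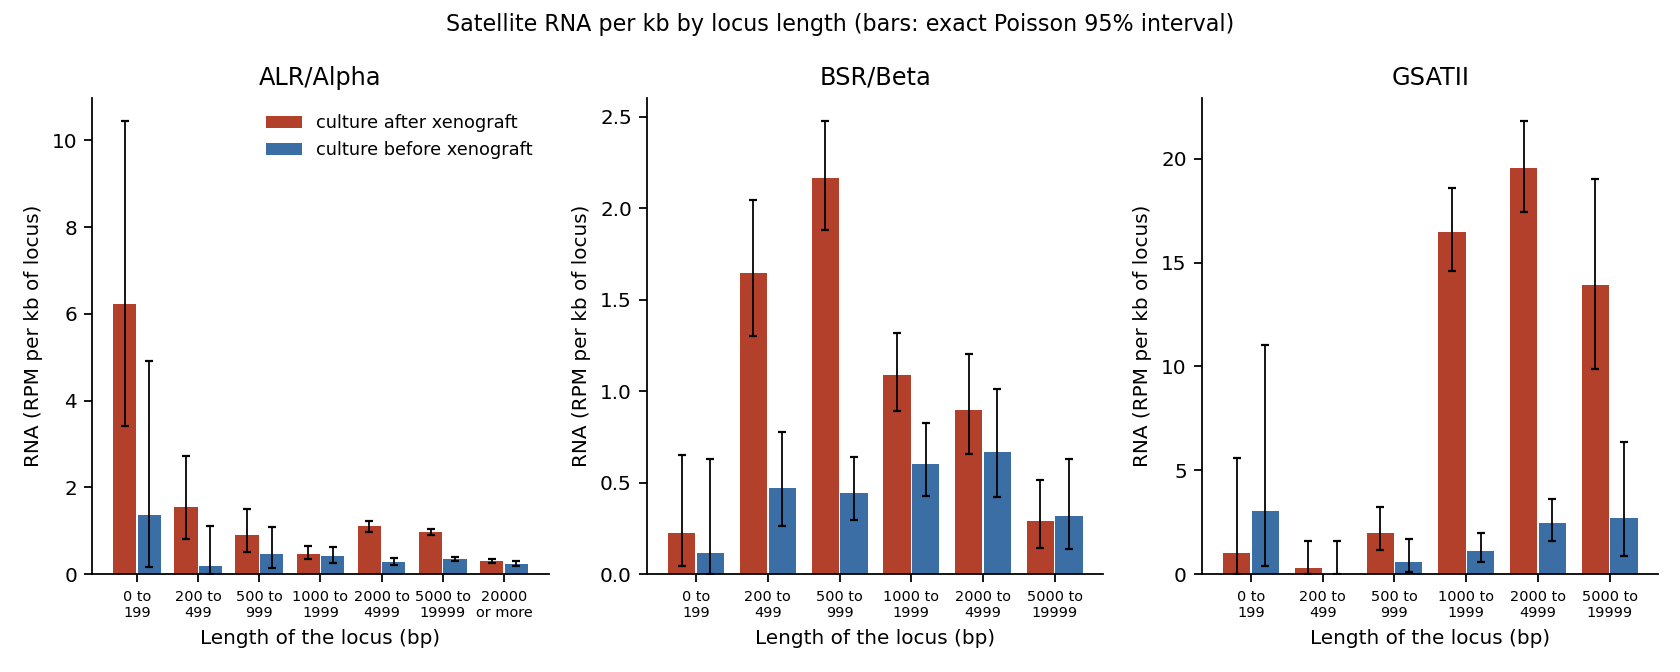
Satellite RNA in RPM per kb of locus by length class for ALR/Alpha, BSR/Beta and GSATII, with the culture after the xenograft left of the culture before it and bars for exact Poisson 95% intervals. GSATII stands at 16.5 and 19.5 RPM per kb after in the classes from 1000 and 2000 bp, against 1.12 and 2.48 before, and alpha loci of 20000 bp or more are nearly level at 0.292 after and 0.239 before.

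Summed over all satellites by chromosome, 16 of the 21 placed chromosomes with 20 or more hits had intervals above 1 and 0 below. Chromosome Y was at 4.21 (3.26 to 5.52; 437 hits after and 68 before), and among placed chromosomes only chromosomes 17 (4.52, 2.78 to 7.75) and 4 (4.45, 2.52 to 8.44) had higher ratios. Without the gamma satellites, chromosome 21 was at 0.424 (0.180 to 0.960; 11 hits after and 17 before), against 2.02 with them, and chromosome 2 was at 0.492 (0.212 to 1.11), against 2.79. Chromosome 9 was at 1.32 without them (0.925 to 1.92), against 2.84.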

How the data were processed

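RNA and DNA of SW620 cells were read by Helicos sequencing, per the labels' protocols. The values are RPM per satellite locus as deposited by the authors, on hg19 per the submitters' processing notes. For the aligner, strand, reads with several matches and the reads behind the library total, the method is not given in the sources used here. Whole reads were recovered from the steps of the RPM values (100% of values whole within 0.01 of a read), which gave hits and totals. The annotation of genes at the loci was not used here.

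Hits were summed by family, chromosome and length of the row names. Ratios after over before carry exact conditional binomial intervals, and relative ratios are conditional odds ratios. Loci were compared on log2(RPM + 5) with a minimum of 20 RPM in either culture. Each culture is 1 library, so no p-value across cultures was computed. The named loci are the 12 highest and 12 lowest differences, the 10 highest loci of each culture, the 3 with most hits in each family with 20 or more hits, and those at 20 RPM or more in both. Families, lists and comparisons were chosen with earlier results of these data known. Alternatives were other scalings (TMM of edgeR 4.0.16, size factors of DESeq2 1.42.0 in R 4.3.3), pseudocounts of 1 and 10 RPM, minimums of 10, 40 or no RPM or 10 hits, equal loci counted once, families without their highest locus, placed chromosomes alone, and a count test. The calculations used Python 3.11.15, NumPy 2.4.6, pandas 2.3.3, SciPy 1.17.1 and matplotlib 3.10.9 and were tested on simulated data.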

Additional observations from a re-analysis of the deposited data

How the results depend on the processing

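With 1 library per culture no replicate could be left out. No paired analysis was possible because each culture has 1 library. Depth limits single loci, since 1 hit is 4.17 RPM after and 6.36 RPM before. The scalings multiply every ratio by a constant (0.593 for TMM, 0.643 for DESeq2 size factors, 0.387 for totals of satellite hits), which by construction moves all ratios together. TMM gave 1.48 for alpha satellite, 1.57 for beta satellite, 5.18 for GSATII, 1.37 for REP522 and 0.962, below 1, for SST1, and 0.957, below 1, for alpha satellite on chromosome 19. Size factors gave 1.61 for alpha satellite, 1.70 for beta satellite, 5.61 for GSATII, 1.48 for REP522 and 1.04 for SST1. Totals of satellite hits, an alternative added after seeing the data, gave 0.968 for alpha satellite, 1.02 for beta satellite, 0.710 for GSAT, 3.37 for GSATII, 4.08 for GSATX, 0.891 for REP522, 0.169 for SATR2 and 0.627 for SST1. Without its highest locus GSAT was at 0.578. Total satellite RNA was at 2.09 without the gamma satellites, also added after seeing the data. Loci equal in RNA counted once, the remaining added alternative, kept the direction of all 20 family ratios, as did equal loci counted once (20) and placed chromosomes alone (19). For loci past 2-fold, TMM gave 28 lower, size factors 21 lower, a minimum of 10 RPM 30 lower, a minimum of 40 RPM 65 higher and 5 lower, a minimum of 10 hits 3 lower, and the count test 38 higher and 3 lower. Without a minimum 210 were higher and 251 lower. There, a single hit before against 0 after passes 2-fold (221 loci) and a single hit after against 0 before does not (290 loci), because the libraries differ in depth. Loci with hits in both cultures numbered 96 with at least 2 hits and 52 with at least 3.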
